A study of Mus musculus with 10 samples.

Results

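The 9 genes described here encode the receiving end of interferon signaling and 1 of its ligands. They are the ligand gene Ifnb1, the receptor chains Ifnar1, Ifnar2, Ifngr1 and Ifngr2, the kinases Jak1 and Tyk2, and the transcription factor subunits Stat2 and Irf9. They were chosen by name for their place in the pathway and not by their values, although earlier results of these data were known. All 9 were found among the 55573 genes measured. RNA was sequenced from bone marrow–derived macrophages (BMDMs), cells grown in culture with M-CSF from the marrow of WT female C57BL/6 mice whose age the labels do not state. Every culture was treated for 4 hours, and each of the 5 groups had 2 libraries, or 10 in all. The vehicle group was the control. The polyU group received 5 μg of poly-uridine, a synthetic ssRNA that engages TLR7, complexed with the lipid DOTAP. The PNPi+dG/rG group received 1 μM ulodesine, which blocks the guanosine-degrading enzyme purine nucleoside phosphorylase, with 5 μM deoxyguanosine and 5 μM guanosine. The PNPi+dG/rG+polyU group received both treatments. The R848 group received 1 ng/mL of R848, an imidazoquinoline agonist of TLR7. The comparisons ask how these genes respond to RNA with DOTAP and to ulodesine with guanosine nucleosides, each alone and together. They also ask how these responses differ from the one to a synthetic agonist at the dose given. No group received ulodesine without the nucleosides or the nucleosides without ulodesine, so their effects cannot be told apart. No label names a group given DOTAP without RNA, so effects of the RNA and of the lipid cannot be told apart either.

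As background, IFN-β binds a receptor made of the IFNAR1 and IFNAR2 chains, which carry the kinases TYK2 and JAK1 on their cytoplasmic tails. The kinases phosphorylate STAT proteins, and STAT2 and IRF9 are parts of the complex ISGF3, which enters the nucleus and binds interferon-stimulated response elements (ISREs) in the promoters of antiviral genes. IFN-γ uses a separate receptor of IFNGR1 and IFNGR2 with JAK1 and JAK2, and its signal acts through gamma-activated sequences (GAS). Macrophages make IFN-β after nucleic acid sensing and respond to it themselves, so STAT2 and IRF9 are both carriers and targets of the signal.

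Values are CPM, the reads on a gene scaled to 1 fixed total in all libraries, and library values are given in the order replicate 1, replicate 2. Depth ran from 14128123 to 38392613 reads on genes, so 3 reads were worth 0.0781 to 0.212 CPM. The labels call the 2 libraries of a group biological replicates but do not tie them to separate mice, so p-values measure the spread between these samples, which may be technical. All 8 macrophage markers examined were present in every library, with a summed level of 15196 to 18026 CPM. Lyz2 made up most of that sum with vehicle (10805 and 11067 CPM), and single markers moved in both directions. Mertk was at 40.3 and 40.6 CPM with vehicle, 9.84 and 8.16 CPM after PNPi+dG/rG+polyU, and 5.36 and 5.66 CPM after R848. From vehicle to R848, Fcgr1 fell from 161 and 166 CPM to 76.2 and 80.1 CPM. Cd14 rose from 466 and 482 CPM to 2985 and 3136 CPM. Markers of other cell types were low except in 1 group. The 4 fibroblast markers summed to 0.393 to 1.02 CPM in the vehicle, polyU and PNPi+dG/rG groups, to 3.61 to 4.85 CPM in PNPi+dG/rG+polyU and to 132 to 139 CPM in R848. In PNPi+dG/rG+polyU most of this was Pdgfrb (3.19 and 4.29 CPM), with Col1a1 at 0.354 and 0.141 CPM. Col1a2 and Dcn were at most 0.281 and 0.141 CPM there. In R848, Col1a1 was at 51.6 and 58.3 CPM and Col1a2 at 40.9 and 40.2 CPM. The 4 neutrophil markers summed to 2.65 to 5.34 CPM in the first 3 groups, 7.39 to 7.50 CPM in PNPi+dG/rG+polyU and 21.1 to 23.4 CPM in R848, with Ly6g at 0 reads in all 10 libraries. The 3 markers of plasmacytoid dendritic cells summed to at most 3.50 CPM, nearly all of it from Ccr9. The 5 T cell markers summed to 5.14 to 8.82 CPM outside R848 and to 0.584 to 1.10 CPM in R848, nearly all of it Cd4, with Cd3e and Cd3d at 0 reads in all 10 libraries. The 4 B cell markers and the 3 NK cell markers stayed at or under 0.787 CPM in sum. The part of these cell types in the results below was not tested, and in bulk RNA fewer cells of a type and less RNA per cell cannot be told apart.

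Promoter sequence is shown for the 4 genes in which a searched motif was found in the 250 bases before the RefSeq start, because these are the motifs that the pathway's own factors and NF-κB are known to bind. The sequences are those of RefSeq on GRCm38.p6, written 5′ to 3′ on the strand of the gene, with the match in capitals. Of the 9 genes, all had an entry, and Irf9 had 2, which made 10 entries. A set of 3 motifs was searched on both strands, and the choice of motifs was made after the values had been seen. The ISRE core, GAAANNGAAA, was present in 2.98% of the 32851 promoter entries of the table. The GAS motif, TTCNNNGAA, was present in 7.02% of them, and the κB motif in 3.90%.
Stat2, chr10:128270248-128270497, plus strand: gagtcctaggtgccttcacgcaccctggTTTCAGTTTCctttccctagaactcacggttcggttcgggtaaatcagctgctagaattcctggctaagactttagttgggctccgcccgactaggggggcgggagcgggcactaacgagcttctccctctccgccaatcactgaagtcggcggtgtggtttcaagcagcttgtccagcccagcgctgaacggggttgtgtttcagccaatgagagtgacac
Ifnb1, chr4:88522795-88523044, minus strand: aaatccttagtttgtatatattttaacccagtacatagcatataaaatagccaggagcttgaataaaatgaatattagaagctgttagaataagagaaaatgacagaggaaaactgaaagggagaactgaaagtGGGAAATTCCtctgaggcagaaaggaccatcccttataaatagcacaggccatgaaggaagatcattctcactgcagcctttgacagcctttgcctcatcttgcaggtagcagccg
Ifngr2, chr16:91546809-91547058, plus strand: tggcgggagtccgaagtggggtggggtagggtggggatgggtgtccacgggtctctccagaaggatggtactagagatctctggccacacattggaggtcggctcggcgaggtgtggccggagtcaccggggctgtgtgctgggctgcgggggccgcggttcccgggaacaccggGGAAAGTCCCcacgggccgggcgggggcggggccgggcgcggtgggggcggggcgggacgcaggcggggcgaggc
Ifnar2, chr16:91372533-91372782, plus strand: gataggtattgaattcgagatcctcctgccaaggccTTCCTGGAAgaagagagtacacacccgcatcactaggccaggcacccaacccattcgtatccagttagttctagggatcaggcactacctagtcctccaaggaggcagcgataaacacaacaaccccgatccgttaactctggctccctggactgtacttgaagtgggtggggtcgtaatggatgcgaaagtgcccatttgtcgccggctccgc
Stat2 held the only ISRE core, 222 to 213 bases before the start, read on the opposite strand of the gene. Ifnb1 held a κB motif 116 to 107 bases before the start, and Ifngr2 held one 75 to 66 bases before it on the opposite strand. Ifnar2 held the only GAS motif, 214 to 206 bases before the start. The entries of Ifnar1, Ifngr1, Jak1, Tyk2 and Irf9 held none of these letters in this window. A match is a description of the letters and not evidence of binding.

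Stat2 and Irf9 were the most responsive of the abundant genes to polyU given with DOTAP, whereas Ifnar1, Ifnar2, Ifngr2 and Jak1 were highest after R848. With limma and an adjusted p threshold of 0.05, 5 of the 9 genes were higher and 1 was lower after polyU than with vehicle, against 20.6% of all 11978 genes tested called higher and 18.7% called lower. The 5 higher genes were Stat2, Irf9, Tyk2, Ifnar1 and Ifngr2, and the lower gene was Jak1. After PNPi+dG/rG alone, 0 of the 9 genes passed the limma threshold, against 0.409% of all genes called higher and 0.392% called lower. At an unadjusted p under 0.05, 1076 of all genes differed there, and among the 9 these were Stat2 (unadjusted p = 0.00544) and Irf9 (0.00999). After PNPi+dG/rG+polyU, 6 of the 9 genes were higher and 1 was lower than with vehicle, where 22.2% of all genes were called higher and 46.7% lower. Ifnar2 joined the 5 genes that rose after polyU. After R848, 7 of the 9 genes were higher and 1, Ifngr1, was lower, where 19.2% of all genes were called higher and 62.9% lower. Adding PNPi+dG/rG to polyU gave 5 of the 9 genes higher and 1 lower, against 15.8% and 47.5% of all genes. Stat2, Irf9, Tyk2, Ifnar1 and Ifngr2 were higher and Ifngr1 was lower, and 3 of these 6 calls remained without PNPi+dG/rG+polyU replicate 2 (Ifnar1, Tyk2 and Stat2). Set against R848, PNPi+dG/rG+polyU gave 4 of the 9 genes higher and 4 lower, against 53.9% and 16.9% of all genes. These comparisons share libraries, so their counts are given side by side and not as independent results.

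The middle of all genes moved in several comparisons, and CPM values depend on what the other genes do. Over all genes tested, the log2 fold change against vehicle had a median of 0.02 after polyU, 0.02 after PNPi+dG/rG, -0.22 after PNPi+dG/rG+polyU and -0.50 after R848. It was -0.24 for PNPi+dG/rG+polyU against polyU and 0.31 for PNPi+dG/rG+polyU against R848. The 8 genes without Ifnb1 had medians of 0.31, 0.05, 0.47, 0.75, 0.16 and -0.07 in the same 6 comparisons. When each library was centred on the median of its genes, the 9 genes counted 8 higher and 0 lower after PNPi+dG/rG+polyU, 8 higher and 0 lower after R848, 7 higher and 0 lower for PNPi+dG/rG+polyU against polyU, and 1 higher and 6 lower for PNPi+dG/rG+polyU against R848. After polyU alone the centred counts were 5 higher and 1 lower, as without centring. Rises after R848 and from polyU to PNPi+dG/rG+polyU were larger on that scale. After R848 they were 1.43 for Ifnar1, 1.65 for Ifnar2, 1.51 for Ifngr2, 1.15 for Jak1, 1.33 for Tyk2, 1.35 for Stat2 and 1.19 for Irf9 (log2). From polyU to PNPi+dG/rG+polyU they were 0.41 for Ifnar1 and Ifngr2, 0.34 for Ifnar2, 0.28 for Jak1, 0.79 for Tyk2, 0.73 for Stat2 and 0.42 for Irf9. So the direction of the small decreases reported for Ifngr1 and of the decrease of Jak1 after PNPi+dG/rG+polyU depends on the scale, as stated with each of them.

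**Figure D1:**
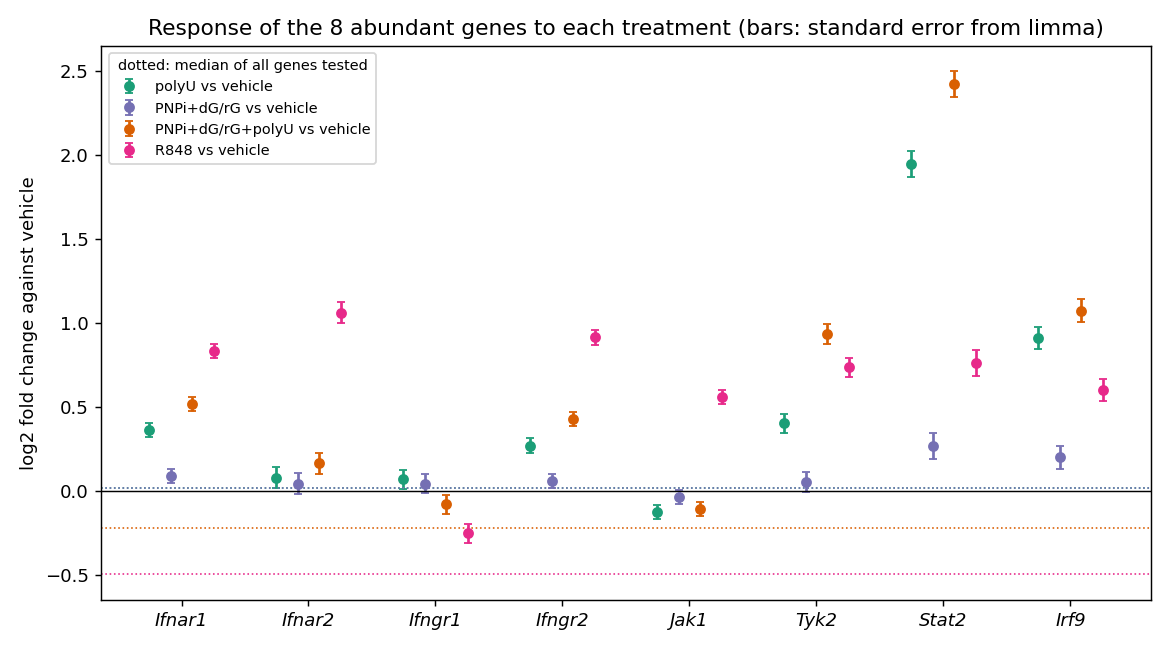
Log2 fold change of CPM against vehicle (y axis) for the 8 genes other than Ifnb1 (x axis) in each of the 4 treatments. Points are limma estimates from 2 libraries per group, bars are 1 standard error and dotted lines are the median of all genes tested in the treatment of that color. Stat2 stands highest after polyU (1.94) and PNPi+dG/rG+polyU (2.42), and Ifnar2 stands highest after R848 (1.06).

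Ifnb1 (ENSMUSG00000048806, GRCm38 chr4:88522025-88522774, minus strand), the gene of IFN-β, was at the edge of detection and was most abundant after PNPi+dG/rG+polyU. Its level was 0.0561 and 0 CPM with vehicle, 0.455 and 0.174 CPM after polyU, 0.0521 and 0 CPM after PNPi+dG/rG, 1.34 and 1.06 CPM after PNPi+dG/rG+polyU, and 0 and 0.0919 CPM after R848. These are 1, 11, 2, 34 and 3 reads in all for the 5 groups. Both PNPi+dG/rG+polyU libraries were above both polyU libraries, and both polyU libraries were above the other 6 libraries. By the limit of 3 reads, the libraries with 0 reads allow levels of up to 0.169 CPM for vehicle, 0.0802 CPM for PNPi+dG/rG and 0.159 CPM for R848. Against vehicle, the ratio of pooled reads per depth was 11.3 for polyU, with an exact 95% interval of 1.64 to 485. It was 42.7 (7.17 to 1737) for PNPi+dG/rG+polyU, 0.940 (0.0489 to 55.5) for PNPi+dG/rG and 2.08 (0.167 to 109) for R848. PNPi+dG/rG+polyU exceeded polyU by a ratio of 3.80 (1.88 to 8.30) and R848 by 20.6 (6.48 to 105). The intervals cover counting error only and not the spread between cultures.

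Ifnb1 passed the filter on low values only through the PNPi+dG/rG+polyU group, in which it is high, so its limma fold changes and p-values are not used. In the counts of called genes it stands as not called, although for PNPi+dG/rG+polyU against vehicle its limma adjusted p ran from 1.21e-05 to 0.367 over the alternatives. Of 20 other interferon ligand genes, 18 had 0 reads in all 10 libraries. The exceptions were Ifna4, with 1 read in polyU replicate 1, and Ifng, with 1 read in R848 replicate 2, so none of the 20 reached 3 reads, the amount taken as detectable, in any library.

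**Figure D2:**
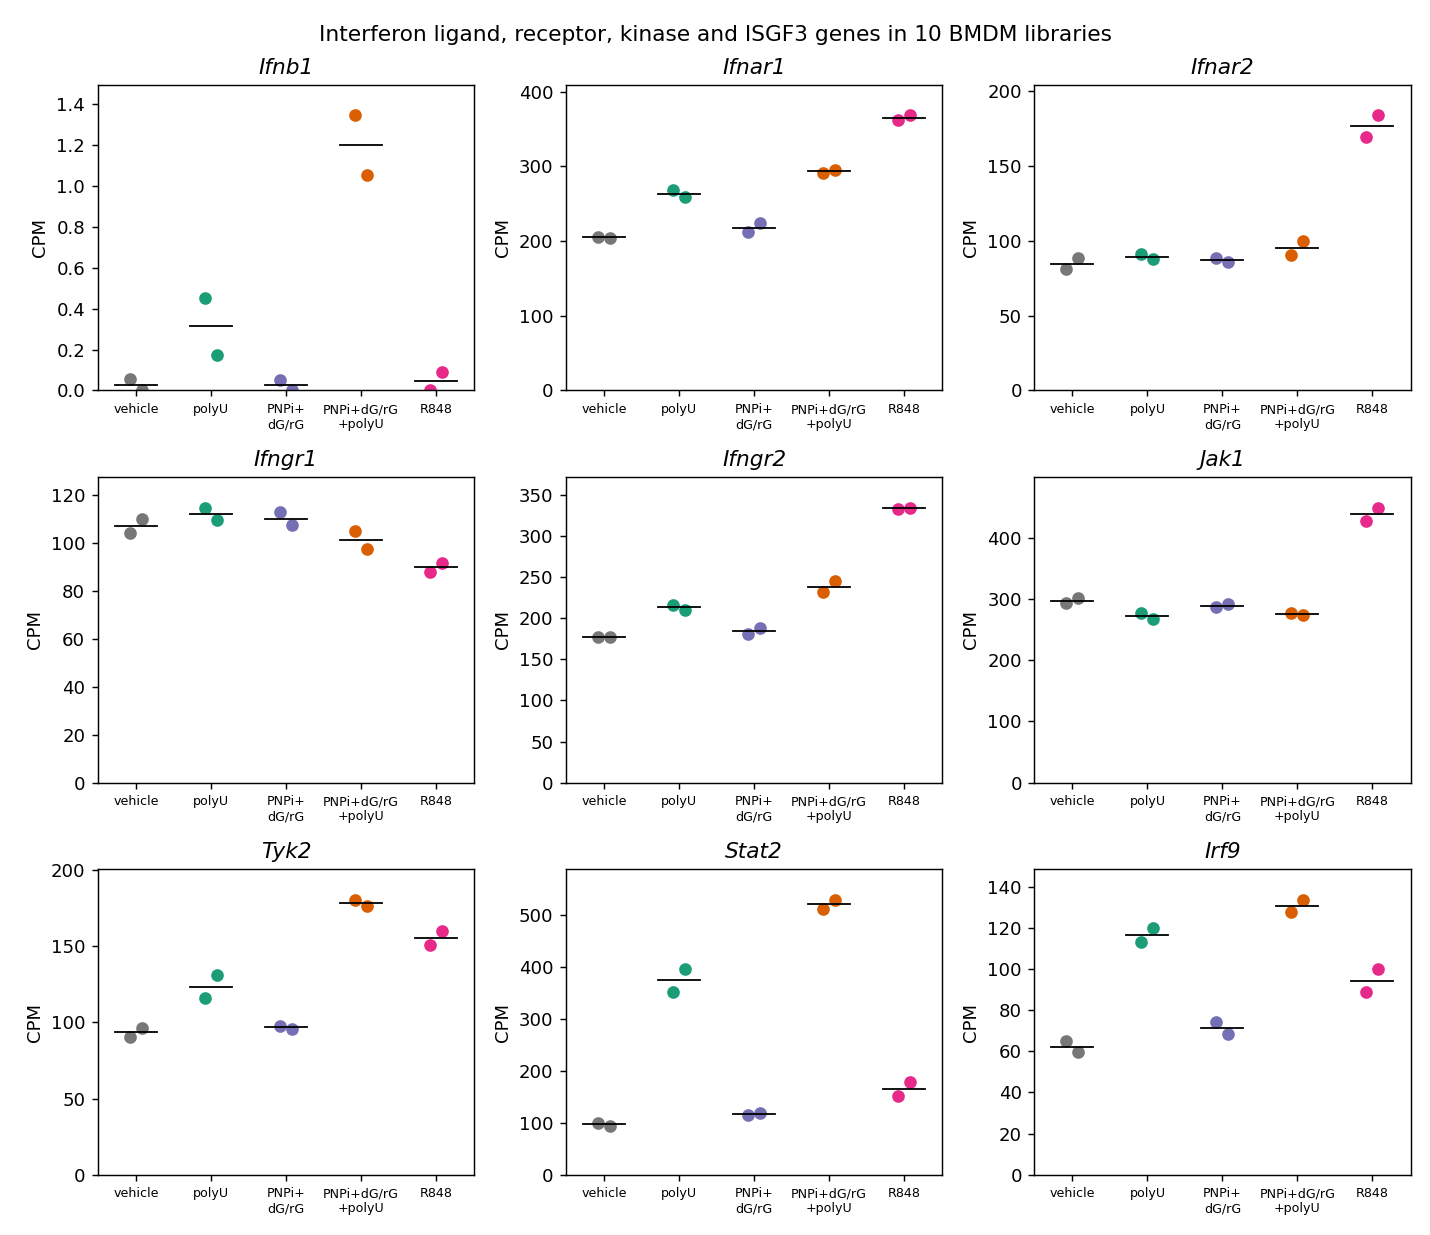
CPM (y axis, from 0, a separate scale in each panel) of the 9 genes in each library, by group (x axis). Points are libraries and lines are group means of 2 libraries. Stat2 spans 93.9 to 528 CPM, with the PNPi+dG/rG+polyU libraries highest, and Ifnar1, Ifnar2, Ifngr2 and Jak1 are highest in the 2 R848 libraries.

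Ifnar1 (ENSMUSG00000022967, chr16:91485238-91507441, plus strand), the chain that carries TYK2, was higher than with vehicle after polyU, PNPi+dG/rG+polyU and R848. Its level was 205 and 204 CPM with vehicle, 212 and 224 CPM after PNPi+dG/rG, 268 and 258 CPM after polyU, 291 and 295 CPM after PNPi+dG/rG+polyU, and 361 and 368 CPM after R848. No 2 groups overlapped, and R848 was the highest. Against vehicle the log2 fold change was 0.36 (SE 0.043, limma adjusted p = 7.03e-06) after polyU, 0.52 (adjusted p = 2.47e-08) after PNPi+dG/rG+polyU and 0.83 (adjusted p = 3.43e-11) after R848. PNPi+dG/rG added to polyU raised it by a further 0.16 on the log2 scale (adjusted p = 0.00479), while PNPi+dG/rG alone gave 0.09 (adjusted p = 0.562).

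Ifnar2 (ENSMUSG00000022971, chr16:91372783-91405589, plus strand), the chain that carries JAK1, doubled after R848. Its level was 81.0 and 88.3 CPM with vehicle, 90.9 and 87.6 CPM after polyU, 88.4 and 85.8 CPM after PNPi+dG/rG, 90.1 and 99.5 CPM after PNPi+dG/rG+polyU, and 169 and 184 CPM after R848. The R848 libraries stood apart from the other 8, which lay between 81.0 and 99.5 CPM. The fold change after R848 was 2.08 (log2 1.06, SE 0.063, limma adjusted p = 2.13e-10). The small rise after PNPi+dG/rG+polyU was 0.16 on the log2 scale (adjusted p = 0.0304). That call was lost without vehicle replicate 1 (log2 0.10) or PNPi+dG/rG+polyU replicate 2 (0.09). With all libraries kept, it was lost with only the groups compared (adjusted p = 0.0507) or without trend and robust eBayes (0.0935). With centred libraries the rise was 0.37 (adjusted p = 4.70e-05). The 2 chains of 1 receptor thus had different values after polyU, 0.36 for Ifnar1 and 0.08 for Ifnar2, although the difference between the genes was not tested.

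Ifngr2 (ENSMUSG00000022965, chr16:91547072-91565623, plus strand), the signaling chain of the IFN-γ receptor, moved in the same order as Ifnar1. Its level was 178 and 177 CPM with vehicle, 181 and 188 CPM after PNPi+dG/rG, 216 and 211 CPM after polyU, 232 and 245 CPM after PNPi+dG/rG+polyU, and 333 and 335 CPM after R848. The groups did not overlap. The log2 fold change against vehicle was 0.27 (limma adjusted p = 0.000173) after polyU, 0.43 (3.62e-07) after PNPi+dG/rG+polyU and 0.91 (SE 0.044, adjusted p = 1.58e-11) after R848. The further rise of 0.16 from polyU to PNPi+dG/rG+polyU (adjusted p = 0.00548) was no longer called without PNPi+dG/rG+polyU replicate 2 (0.117 on the log2 scale, adjusted p = 0.0720), and was 0.41 with centred libraries (adjusted p = 7.16e-07).

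Ifngr1 (ENSMUSG00000020009, chr10:19591949-19610229, plus strand), the chain that binds IFN-γ, was the only receptor chain of the 4 that was called higher in CPM after no treatment. Its level was 104 and 110 CPM with vehicle, 115 and 109 CPM after polyU, 113 and 107 CPM after PNPi+dG/rG, 105 and 97.4 CPM after PNPi+dG/rG+polyU, and 88.0 and 91.6 CPM after R848. The R848 libraries were the 2 lowest, and the other groups overlapped the vehicle libraries. After R848 its CPM was 1.19-fold lower (log2 -0.25, SE 0.056, limma adjusted p = 0.00064), which is less of a decrease than the median gene's, and with centred libraries the value was 0.34 (adjusted p = 2.83e-05). For PNPi+dG/rG+polyU against vehicle it was -0.08 (adjusted p = 0.212), and 0.13 with centred libraries. Its decrease of 0.15 from polyU to PNPi+dG/rG+polyU (adjusted p = 0.0322) became 0.11 higher with centred libraries. The call was lost without polyU replicate 1 (log2 -0.11) or PNPi+dG/rG+polyU replicate 2 (-0.09). With all libraries kept, it was lost with no filter (adjusted p = 0.0827), only the groups compared (0.0526) or no trend and robust eBayes (0.0780). Its excess of 0.17 in PNPi+dG/rG+polyU over R848 (adjusted p = 0.0124) turned to -0.21 with centred libraries and was not called without PNPi+dG/rG+polyU replicate 1 (0.132) or R848 replicate 1 (0.0885).

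Of the 4 receptor chain genes, 3 lie on chromosome 16 in a span of 193 kb, all on the plus strand and in the order Ifnar2, Ifnar1, Ifngr2, with Il10rb after Ifnar2. Il10rb, named here after its values were seen, encodes a chain shared by the receptors of IL-10 and IFN-λ. It did not share the rise of its neighbors: it had 210 CPM on average with vehicle, 224 after polyU, 163 after PNPi+dG/rG+polyU and 154 after R848. The log2 fold changes were -0.37 (limma adjusted p = 4.70e-06) and -0.45 (adjusted p = 3.03e-07) for the last 2. With centred libraries they were -0.16 and 0.15, so the sign after R848 depends on the scale, but Il10rb remained below its 3 neighbors on either. Within 100 kb on both sides of the span, 10 genes were tested. After R848, 4 of them were higher and 5 lower, against 19.2% and 62.9% of all genes tested. The 4 higher genes were Ifnar2, Ifnar1, Ifngr2 and Tmem50b (0.33 on the log2 scale), and the lower ones included Gart, an enzyme of purine synthesis, at -1.35. The lower genes A930006K02Rik and Gm15964 averaged 1.095 and 1.825 CPM with vehicle, and 0.141 and 0.514 CPM after R848. They passed the filter on low values through groups other than R848, so their lower calls carry no weight. Son, at the far end, had 0.04 after R848 (limma adjusted p = 0.308), where the median over all genes was -0.50. After PNPi+dG/rG+polyU, 5 of the 10 were higher and 4 lower, against 22.2% and 46.7% of all genes tested. The higher genes were the 3 receptor chains, Tmem50b (0.43, beside 0.43 for Ifngr2) and Son (0.23, adjusted p = 4.47e-05). The genes of this stretch other than Il10rb and the receptor chains were chosen by position after the values had been seen.

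**Figure D3:**
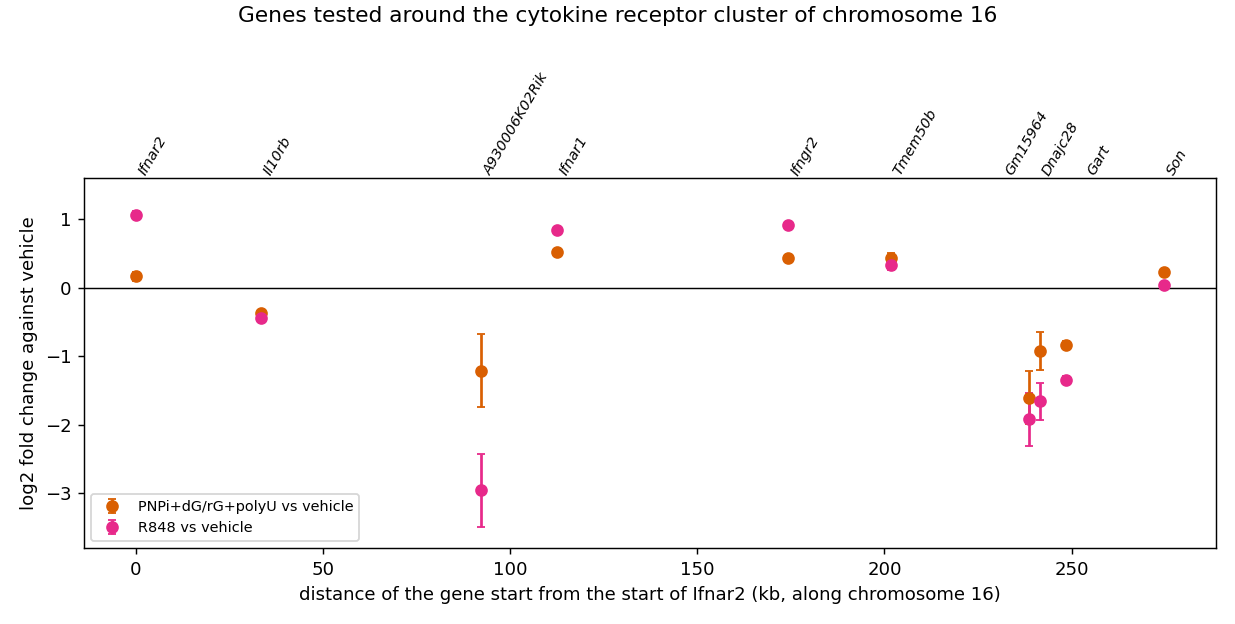
Log2 fold change of CPM against vehicle (y axis) of the 10 genes tested in and within 100 kb of the receptor cluster, by the distance of the gene's lower coordinate from that of Ifnar2 in kb (x axis). Points are limma estimates with bars of 1 standard error, orange for PNPi+dG/rG+polyU and pink for R848. Ifnar2, Ifnar1 and Ifngr2 are above 0 in both treatments, with Il10rb between them at -0.37 and -0.45.

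Tyk2 (ENSMUSG00000032175, chr9:21104068-21131243, minus strand), the kinase on IFNAR1, rose with both RNA treatments and after R848, and was highest after PNPi+dG/rG+polyU. Its level was 90.5 and 96.6 CPM with vehicle, 97.7 and 95.8 CPM after PNPi+dG/rG, 116 and 131 CPM after polyU, 181 and 176.5 CPM after PNPi+dG/rG+polyU, and 151 and 160 CPM after R848. The last 3 groups did not overlap each other or the first 2, which overlapped. The log2 fold change against vehicle was 0.40 (limma adjusted p = 6.30e-05) after polyU, 0.93 (SE 0.059, adjusted p = 8.85e-10) after PNPi+dG/rG+polyU and 0.73 (adjusted p = 9.95e-09) after R848. PNPi+dG/rG raised it by 0.53 in the presence of polyU (adjusted p = 1.17e-06) and by 0.05 in its absence (adjusted p = 0.888). The difference between these effects, the interaction, was 0.48 (SE 0.083, adjusted p = 0.000198). The excess over R848 of 0.20 (adjusted p = 0.00672) turned to -0.18 with centred libraries and was not called without R848 replicate 1 (0.0687). An antisense gene, 1700084C06Rik, overlaps 24326 bp of Tyk2 and had 0.211 to 0.566 CPM. Whether reads were counted by strand is not stated in the sources used here, so reads of this pair cannot be told apart.

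Jak1 (ENSMUSG00000028530, chr4:101152367-101265282, minus strand), the kinase common to both receptors, differed between the RNA treatments and R848. Its level was 294 and 302 CPM with vehicle, 277 and 267 CPM after polyU, 287 and 292 CPM after PNPi+dG/rG, 278 and 275 CPM after PNPi+dG/rG+polyU, and 428 and 449.9 CPM after R848. Both polyU-treated groups lay below vehicle and overlapped each other, and R848 lay far above all. After R848 it was 1.47-fold higher (log2 0.56, SE 0.042, limma adjusted p = 3.95e-09). After polyU it was 1.09-fold lower (log2 -0.13, adjusted p = 0.0215), a call lost without vehicle replicate 2 (log2 -0.11) or polyU replicate 2 (-0.10). With all libraries kept, that call was lost with only the groups compared (adjusted p = 0.0686) or without trend and robust eBayes (0.0698). After PNPi+dG/rG+polyU, Jak1 was 1.08-fold lower (log2 -0.11, adjusted p = 0.0306), which turned to 0.10 higher with centred libraries. This second call was lost without vehicle replicate 2 (log2 -0.09), PNPi+dG/rG+polyU replicate 1 (-0.12) or PNPi+dG/rG+polyU replicate 2 (-0.10). It was also lost with all libraries kept but without trend and robust eBayes (adjusted p = 0.0738).

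Stat2 (ENSMUSG00000040033, chr10:128270559-128292849, plus strand), the STAT that characterizes ISGF3, had the largest response of the 8 abundant genes to polyU and to PNPi+dG/rG+polyU. Its level was 100.4 and 93.9 CPM with vehicle, 115 and 118 CPM after PNPi+dG/rG, 351 and 396 CPM after polyU, 510.5 and 528 CPM after PNPi+dG/rG+polyU, and 150.5 and 179 CPM after R848. No 2 groups overlapped, and R848 lay between PNPi+dG/rG and polyU. The fold change against vehicle was 3.84 (log2 1.94, SE 0.078, limma adjusted p = 3.03e-09) after polyU, 5.35 (log2 2.42, adjusted p = 3.85e-11) after PNPi+dG/rG+polyU and 1.69 (log2 0.76, adjusted p = 1.74e-06) after R848. PNPi+dG/rG+polyU exceeded polyU by 0.48 (adjusted p = 0.000203) and R848 by 1.66 (adjusted p = 2.22e-09). With PNPi+dG/rG alone the value was 0.27 (adjusted p = 0.216), which was called without R848 replicate 1 (adjusted p = 0.0479). The interaction was 0.21 (adjusted p = 0.130), and it was called without polyU replicate 2 (0.0459), R848 replicate 1 (0.0405) or R848 replicate 2 (0.0411).

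Irf9 (ENSMUSG00000002325, chr14:55603571-55610030, plus strand), the DNA-binding subunit of ISGF3, followed the order of Stat2 in CPM over a narrower range. Its level was 64.8 and 59.6 CPM with vehicle, 74.1 and 68.5 CPM after PNPi+dG/rG, 113 and 120.1 CPM after polyU, 128 and 134 CPM after PNPi+dG/rG+polyU, and 88.7 and 99.8 CPM after R848. No 2 groups overlapped. The fold change against vehicle was 1.88 (log2 0.91, SE 0.067, limma adjusted p = 4.61e-08) after polyU, 2.10 (log2 1.07, adjusted p = 8.32e-10) after PNPi+dG/rG+polyU and 1.51 (log2 0.60, adjusted p = 5.66e-07) after R848. The step of 0.16 from polyU to PNPi+dG/rG+polyU (adjusted p = 0.0445) was not called without polyU replicate 1 (log2 0.12), PNPi+dG/rG+polyU replicate 1 (0.20) or PNPi+dG/rG+polyU replicate 2 (0.13). With all libraries kept, it was not called with no filter (adjusted p = 0.0611) or without trend and robust eBayes (0.124). The excess of 0.47 over R848 (adjusted p = 1.36e-05) was 0.09 with centred libraries (adjusted p = 0.253). On that scale Irf9 was higher after R848 (log2 1.19 against vehicle) than after polyU (0.86), unlike Stat2 (1.35 and 1.90). Irf9 shares 123 bp with Rnf31 on the same strand, which had 49.2 to 114.5 CPM, so reads in the shared stretch are of uncertain origin.

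With R848, the values of the 8 genes stood beside fibroblast markers of 132 to 139 CPM in sum, against 0.393 to 0.955 CPM with vehicle. The neutrophil markers summed to 21.1 to 23.4 CPM against 2.86 to 3.48 CPM, nearly all of it S100a8 after R848. S100a9 was at 0.0531 and 0 CPM after R848, against 1.18 and 1.46 CPM with vehicle. Against PNPi+dG/rG+polyU, R848 gave higher Ifnar2 (by 0.90 on the log2 scale), Jak1 (by 0.67), Ifngr2 (by 0.49) and Ifnar1 (by 0.32), with limma adjusted p of 4.47e-09, 1.19e-09, 9.53e-08 and 7.90e-06. It gave lower Stat2 (by 1.66), Irf9 (by 0.47), Tyk2 (by 0.20) and Ifngr1 (by 0.17). The signs for Tyk2 and Ifngr1 turned with centred libraries, and Irf9 was then no longer called, whereas Stat2 and the 4 genes higher after R848 kept their direction and their calls under every alternative run. The R848 dose has no counterpart in the polyU groups, so this is a comparison of the treatments as given.

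For the interaction of PNPi+dG/rG with polyU, 1 of the 9 genes was called higher than the sum of the separate effects and 0 lower, against 11.8% and 38.9% of all genes and a median over all genes of -0.27. The called gene was Tyk2. The median of the 8 genes without Ifnb1 was 0.06. On centred libraries 7 of the 9 genes were called higher and 0 lower, so how many of these genes departed from additivity depended on the scale. Tyk2 was called under every alternative run, with values from 0.399 to 0.771 on the log2 scale. The next lowest adjusted p was that of Ifngr1, at -0.19 (adjusted p = 0.0612), which was called without vehicle replicate 2 (0.0443) or PNPi+dG/rG+polyU replicate 1 (0.0329) and turned to 0.10 with centred libraries (0.323).

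Levels of different genes were compared per kb of annotated exon. With vehicle the order from the highest was Ifngr2 (47.0 CPM per kb), Jak1 (41.2), Ifngr1 (37.6), Ifnar1 (34.5), Ifnar2 (25.4), Stat2 (16.4), Tyk2 (13.6), Irf9 (11.5) and Ifnb1 (0.0374). The 2 libraries of neighbors in this order did not overlap. Receptor chains and Jak1 thus lay above the ISGF3 subunits and Tyk2 at rest. After polyU, Stat2 came first at 63.1 CPM per kb, ahead of Ifngr2 at 56.7. After PNPi+dG/rG+polyU, Stat2 reached 87.7 and Ifngr2 63.3, whereas Ifnar2 had 28.5 and Irf9 24.2. After R848, the order was Ifngr2 (88.5), Ifnar1 (61.4), Jak1 (60.8), Ifnar2 (53.0), Ifngr1 (31.5), Stat2 (27.8), Tyk2 (22.6) and Irf9 (17.5), and the libraries of Ifnar1 and Jak1 overlapped. With PNPi+dG/rG the order was that of vehicle, and the libraries of Ifngr1 and Ifnar1 overlapped. Dividing by the longest transcript in place of all exons changed the rank of 3 genes with vehicle, 6 after polyU, 3 after PNPi+dG/rG, 5 after PNPi+dG/rG+polyU and 2 after R848, so the order rests on the annotation. By the longest transcript Jak1 came first with vehicle (60.7 CPM per kb) and Ifngr2 the fourth (47.8), and after R848 Ifnar1 (93.3) was ahead of Ifngr2 (90.0). Stat2 came first after polyU and PNPi+dG/rG+polyU by either length.

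**Figure D4:**
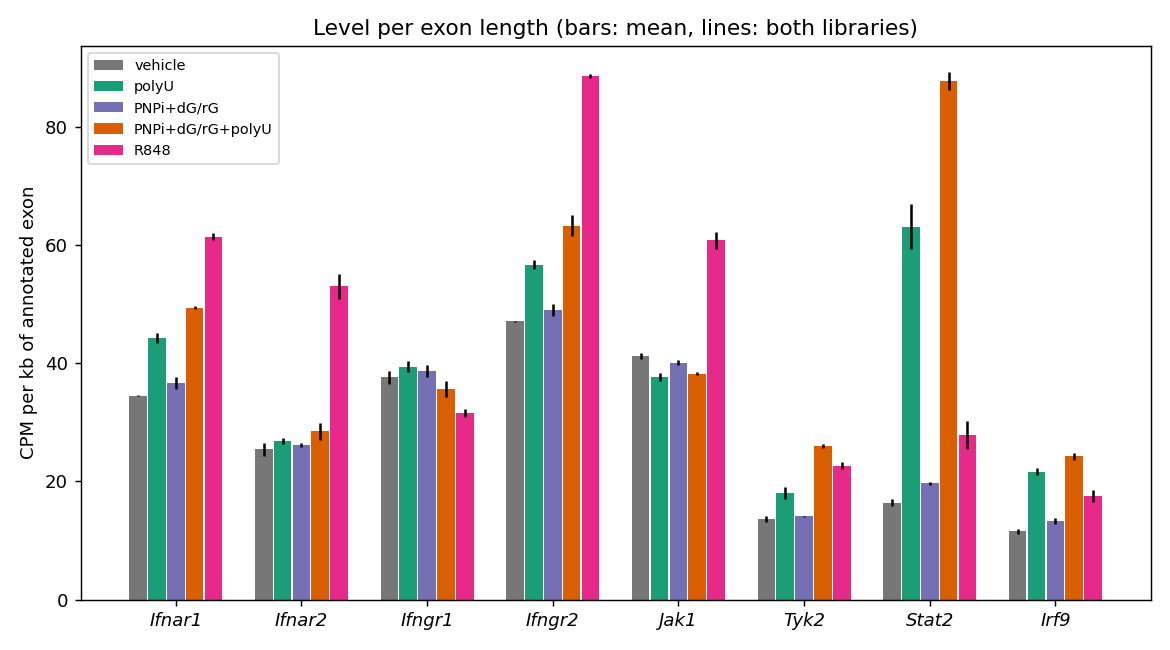
CPM per kb of annotated exon (y axis, from 0) of the 8 genes other than Ifnb1 (x axis) in the 5 groups. Bars are means of 2 libraries and black lines join the 2 libraries. Stat2 rises from 16.4 with vehicle to 87.7 after PNPi+dG/rG+polyU, while Ifngr2 is the highest gene by this length with vehicle (47.0) and R848 (88.5).

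Among the other receptor chains, kinases and STATs of the pathway, 8 of 9 genes could be tested (Ifnlr1 was too low). After polyU, 1 was higher, Jak2, and 0 lower, against 20.6% of all genes tested called higher and 18.7% lower. Jak2, the kinase on IFNGR2, had 51.1 and 48.5 CPM with vehicle, 77.5 and 78.0 CPM after polyU, 53.0 and 54.2 CPM after PNPi+dG/rG, 421 and 439 CPM after PNPi+dG/rG+polyU, and 779 and 769 CPM after R848. Its log2 fold change was 3.11 after PNPi+dG/rG+polyU and 3.96 after R848, beside -0.11 and 0.56 for Jak1 and 0.93 and 0.73 for Tyk2. Stat3 followed with 0.71 and 1.96, and Stat5a with 0.86 and 1.08. Stat6, the STAT of interleukin-4 signaling, had 333 and 354 CPM with vehicle, 221 and 213 CPM after PNPi+dG/rG+polyU, and 182 and 186 CPM after R848, and fell by 0.66 and 0.90 in these comparisons. Against R848 its log2 difference was 0.24 (limma adjusted p = 0.000218) and -0.15 with centred libraries (adjusted p = 0.00955).

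In all, PNPi+dG/rG+polyU gave 4 of these 8 genes higher (Jak2, Jak3, Stat3 and Stat5a) and 2 lower (Il10rb and Stat6), R848 gave the same 4 higher and 3 lower (Il10rb, Stat5b and Stat6), and PNPi+dG/rG alone gave 0. Over all genes tested, 22.2% were higher and 46.7% lower after PNPi+dG/rG+polyU, and 19.2% and 62.9% after R848. After PNPi+dG/rG alone, 0.409% of all genes were higher and 0.392% lower. With centred libraries R848 gave 6 higher and 1 lower of the 8. Their median log2 fold change was 0.37 after PNPi+dG/rG+polyU and 0.31 after R848, or 0.58 and 0.91 with centred libraries, so the order of these medians depends on the scale. For the interaction, 3 were higher (Jak2, Stat3 and Stat5a) and 3 lower (Il10rb, Stat5b and Stat6), or 4 higher and 1 lower with centred libraries, beside 11.8% and 38.9% of all genes on the CPM scale. Against R848, PNPi+dG/rG+polyU gave 1 higher (Stat6) and 4 lower (Jak2, Jak3, Stat3 and Stat5a), or 0 higher and 7 lower with centred libraries. Over all genes tested, 53.9% were higher and 16.9% lower in that comparison on the CPM scale.

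Of 11 inhibitors of the pathway, 6 were higher and 2 lower after polyU (Pias2 and Ptpn1), 7 higher and 2 lower after PNPi+dG/rG+polyU (Pias2 and Pias3), and 7 higher and 3 lower after R848 (Pias1, Pias2 and Pias3). All genes tested were higher and lower in 20.6% and 18.7% of cases after polyU, 22.2% and 46.7% after PNPi+dG/rG+polyU, and 19.2% and 62.9% after R848. With PNPi+dG/rG alone 0 of the 11 were called, against 0.409% of all genes called higher and 0.392% lower. With centred libraries the counts were 5 and 3 after polyU, 9 and 2 after PNPi+dG/rG+polyU, and 9 and 1 after R848. Socs3, which blocks JAK kinases at cytokine receptors, rose from 4.60 and 3.82 CPM with vehicle to 42.3 and 44.4 CPM after polyU, 1963 and 2007 CPM after PNPi+dG/rG+polyU, and 2023 and 2152 CPM after R848. Socs1, the SOCS protein that acts on both interferon receptors, rose from 2.69 and 2.08 CPM to 12.2 and 13.5, 117 and 127, and 96.8 and 106 CPM in the same groups. Usp18, which binds IFNAR2 and dampens its signal, rose by 2.26, 3.43 and 2.63 on the log2 scale after polyU, PNPi+dG/rG+polyU and R848. Ptpn1, a phosphatase of JAK2 and TYK2, fell by 0.14 after polyU and rose by 0.59 after PNPi+dG/rG+polyU and 1.69 after R848. The median of the 11 was 0.18, 0.59 and 0.69 in these 3 comparisons, and 0.14, 0.80 and 1.29 with centred libraries.

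The 10 genes listed as targets of ISGF3 were described by count and median, with some of them named. What drove their changes was not tested. All 10 were higher after polyU and after PNPi+dG/rG+polyU, 9 were higher after R848, and 0 were called after PNPi+dG/rG, against the shares of all genes given above. Irf7 was the gene not called after R848 (-0.21, adjusted p = 0.0555). With centred libraries it was 0.39 (adjusted p = 0.00484) and all 10 were called higher. The median log2 fold changes were 3.26, 4.13, 1.53 and 0.33, beside medians over all genes of 0.02, -0.22, -0.50 and 0.02. PNPi+dG/rG+polyU exceeded polyU for 9 of the 10 (median 1.17), against 15.8% of all genes (median -0.24). It exceeded R848 for all 10 (median 2.98), against 53.9% of all genes (median 0.31). The interaction was called higher in 11.8% of all genes and lower in 38.9%, with a median of -0.27. Of the 10 targets, 5 were called higher in it (Cxcl10, Isg15, Mx1, Mx2 and Oasl1) and 0 lower, with a median of 0.91. With centred libraries 9 were higher and 0 lower (median 1.20), and PNPi+dG/rG+polyU exceeded polyU for all 10.

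**Figure D5:**
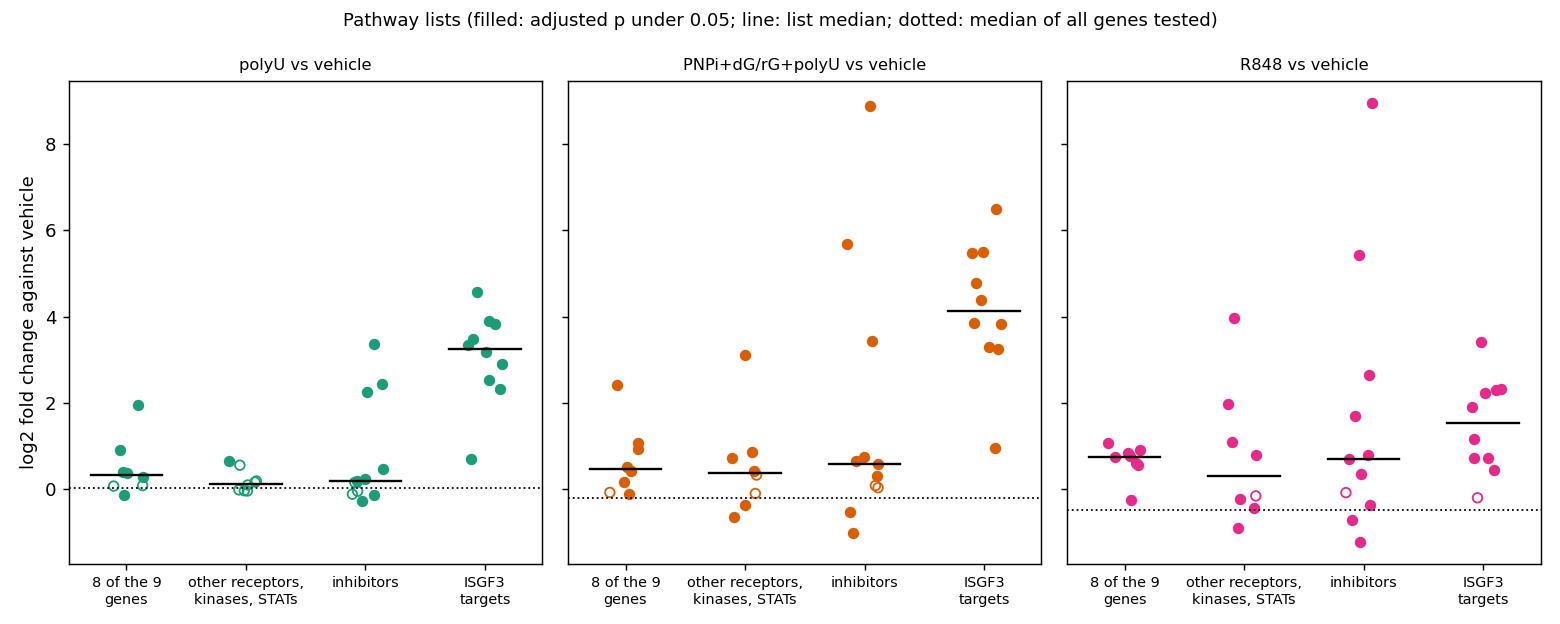
Log2 fold change of CPM against vehicle (y axis) of the genes in 4 lists (x axis), in 1 panel each for polyU, PNPi+dG/rG+polyU and R848. Filled points passed an adjusted p of 0.05 with limma, open points did not, black lines are list medians and dotted lines the median of all genes tested. ISGF3 targets have medians of 3.26, 4.13 and 1.53 from left to right, whereas the 8 genes have 0.31, 0.47 and 0.75.

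The genes whose pattern over the 10 libraries was most like that of each member were found by Pearson's r of log2(CPM + 1) among 8459 genes with at least 10 CPM on average. With 5 groups behind the 10 libraries, these r describe likeness of the group means and carry no test. Stat2 was most like Rsad2 (r = 0.996), Ifi213 and Oas2, antiviral or interferon-induced genes. Irf9 was most like Chmp2a (0.990), Arf1 and Ddx58, and Tyk2 was most like Ssh3 (0.995), Csf1 and Gbp2. Ifnar1 was most like H2-Q6 (0.995), Slc25a37 and Agpat4, and Ifngr2 was most like Pilra (0.994), Ubb and Slc4a7. Ifnar2 was most like Anxa6 (0.991), Gnb1 and Pla2g7, and Jak1 was most like Dennd5a (0.996), Fn1 and Gys1. Ifngr1 was most like Trim11 (0.982), Ccnq and Aldoc. No gene was among the 3 nearest of 2 members.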

How the data were processed

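RNA of 10 BMDM libraries was sequenced by the authors as 50 bp single reads on a HiSeq 3000 from stranded mRNA libraries. Per the labels, bcl2fastq 2.19.1.403 and STAR 2.27a were used with GRCm38. The authors counted reads on Ensembl 97 genes, scaled the counts in Partek Flow and deposited CPM with 0.0001 added to every value. The counting rule for overlapping genes is not given in the sources used here. CPM are shares of a library, so strong induction of some genes lowers the others. Reads per gene were recovered from the steps between low values.

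Genes reaching 1 CPM in 2 or more libraries (11978) were fitted as log2 of the deposited CPM in limma 3.58.1 (R 4.3.3, trend and robust eBayes, statmod 1.5.0), all 5 groups in 1 model. Benjamini-Hochberg adjustment was made within each of 7 comparisons, and a gene was called at an adjusted p under 0.05 in either direction. The steps were checked on simulated data. Exact intervals for Ifnb1 used scipy 1.17.1. Positions are from GENCODE M21, and 55394 identifiers had a symbol.

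The members, lists and tests were chosen with earlier results of these data known. All 9 members are named. Of the other receptors, kinases, STATs and inhibitors, up to 4 a list called in at least 3 comparisons with the largest change are named, with the members of any count of 5 or fewer. Il10rb, Tmem50b, Gart, Son, A930006K02Rik, Gm15964, Irf7 and the promoter motifs were picked after their values were seen. A gene of the list of other receptor chains, kinases and STATs is not reported here and is in none of its counts. Replicate libraries differed by more than sampling noise, and none were counted as 1. Alternatives are given in the closing section.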

Additional observations from a re-analysis of the deposited data

Results flagged for a closer look

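On the CPM scale, Tyk2 was the only member for which the effect of PNPi+dG/rG was called different between cultures with and without polyU. The effect was 0.53 on the log2 scale with polyU and 0.05 without it, and the interaction term of the limma fit was 0.48 (SE 0.083, adjusted p = 0.000198, 2 libraries per group). Both PNPi+dG/rG+polyU libraries (181 and 176.5 CPM) were above both polyU libraries (116 and 131 CPM), while the PNPi+dG/rG libraries (97.7 and 95.8 CPM) overlapped vehicle (90.5 and 96.6 CPM). The 2 polyU libraries differed from each other more than those of any other group. Over all genes tested, the interaction was called higher in 11.8% and lower in 38.9%, with a median of -0.27. With centred libraries it was 0.77 for Tyk2, and 7 of the 9 genes were called higher, among them Stat2 (0.50) and Ifngr2 (0.39). Thus the singling out of Tyk2 depends on the scale.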

How the results depend on the processing

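The 9 genes include Ifnb1, whose limma results are not used and which had more of the gained calls below than any other of them. The 7 comparisons of 9 genes gave 63 fold changes and, over all alternatives, 1190 values. Of these, 1117 stayed on their side of the threshold (15 of them with no call and a changed sign), 27 lost a call, 39 gained one and 7 changed sign with a call on at least 1 side. These 7 changes of sign came from centring each library on its median gene: Ifngr1 became 0.130 (PNPi+dG/rG+polyU against vehicle), 0.341 (R848 against vehicle), 0.108 (PNPi+dG/rG+polyU against polyU) and -0.210 (PNPi+dG/rG+polyU against R848), Jak1 0.103 (PNPi+dG/rG+polyU against vehicle), Tyk2 -0.183 (PNPi+dG/rG+polyU against R848) and Irf9 0.253 (interaction). The number of genes called with PNPi+dG/rG against vehicle was 1 in place of 0 with no filter and with only the groups compared, and 0 to 1 with a library left out (1, Stat2, without R848 replicate 1). For PNPi+dG/rG+polyU against polyU it ran from 3 to 6 in place of 6 with a library left out, the 3 coming without PNPi+dG/rG+polyU replicate 2. For the interaction it was 2 in place of 1 with a pseudocount of 1, with no filter and with only the groups compared, 7 with centred libraries, and 1 to 2 with a library left out. For the interaction, the gene added with a pseudocount of 1 was Ifnb1. With no filter and with only the groups compared it was Stat2. The causes were not tested. The filter on the mean dropped Ifnb1. With the replicate number as a block (replicate block), the 7 counts were 6, 0, 7, 8, 6, 8 and 1, as without it. Same-numbered libraries did not deviate together (median r = -0.023, range -0.286 to 0.109 over 10 pairs of groups), so the numbers were not taken as a pairing. With the PNPi+dG/rG numbers crossed, an alternative chosen after seeing the data, the interaction count was 2. Depth limits Ifnb1 and the other ligands, which rest on at most 34 reads per group.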
